A study of Mus musculus with 208 samples.

Results

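The response of hypothalamic neurons to lipopolysaccharide (LPS) was examined in adult mice that had received no morphine. All animals were wild-type C57BL/6NTac mice of both sexes whose dams carried minipumps with saline, and which were injected with saline as pups while fostered on drug-naive surrogates. As adults they received saline (SAL–SAL) or LPS (SAL–LPS), and tissue was collected 2 h later. Each RNA-seq library was made from about 5000 nuclei of 1 animal, sorted for the neuronal nuclear protein NeuN. The libraries taken were those labelled hypothalamus in these groups whose total count was at least 0.5 of the median total of all 51 hypothalamus libraries. This left 20 of 23 such libraries, out of 208 in the series, with 9 SAL–SAL (4 female, 5 male) and 11 SAL–LPS (7 female, 4 male). Total counts were 3128218 to 9052588 in SAL–SAL and 3050166 to 35077048 in SAL–LPS, and the libraries left out held 160755 and 1735379 (SAL–SAL) and 7673 (SAL–LPS). Per the sample ID format in the study's supplement, the first number of a library's name is its litter, and each number was of 1 sex except litter 3. For comparison, 14 MOR–SAL and 14 MOR–LPS libraries came from mice exposed to morphine around birth that received saline or LPS as adults.

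LPS is a component of the outer membrane of Gram-negative bacteria that is sensed by Toll-like receptor 4, mainly on myeloid and vascular cells. The cytokines and prostaglandins released after it act on the hypothalamus, which organizes fever, loss of appetite and the release of glucocorticoids. Acute-phase genes, NF-kB targets, interferon-response genes and glucocorticoid-induced genes are known to be transcribed in the brain after it.

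The libraries differed in markers of brain region and of glia. Sim1, Otp, Nkx2-1 and Fezf1, transcription factors of hypothalamic neurons, summed to 0 CPM (counts scaled to a common library total) in SAL–SAL 10-1 and 10-3 and to 0.65 CPM in SAL–LPS 4-4, against 1.65 to 55.2 CPM in the others. The summed level of 12 thalamus markers ran from 243 to 4516 CPM in SAL–SAL (median 1296) and from 151 to 872 CPM in SAL–LPS (median 309). The groups overlapped, but SAL–SAL 10-1, 10-3, 5-3, 3-2 and 11-1 lay above every SAL–LPS library. In SAL–SAL libraries of other regions the same sum had medians of 1204 CPM in hippocampus, 1842 CPM in prefrontal cortex and 2944 CPM in striatum. Its level alone therefore does not identify thalamic tissue. Brainstem markers reached 270 and 114 CPM in SAL–LPS 1-0 and 3-3 and at most 22.4 CPM in SAL–SAL. Oligodendrocyte markers ran from 83.2 to 7732 CPM in SAL–SAL and from 143 to 2316 CPM in SAL–LPS. Neuron markers were high throughout, at 1748 to 3282 CPM in SAL–SAL and 1741 to 2886 CPM in SAL–LPS. In 1 female-labelled SAL–LPS library the Y-linked genes were above the limit set for females. In such samples a change in the share of a cell type and a change in RNA per cell cannot be told apart.

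**Figure D1:**
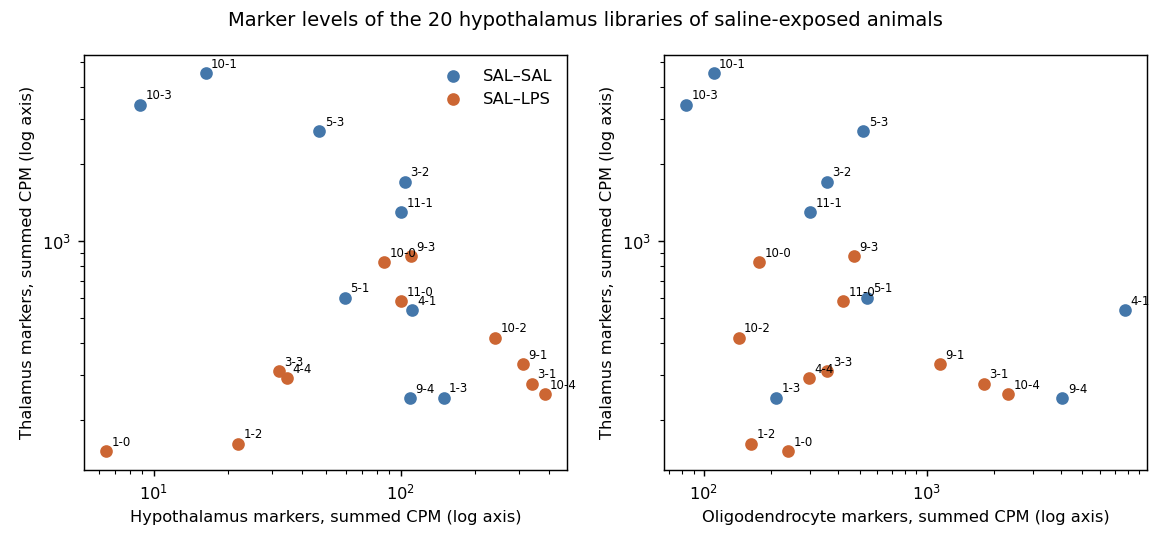
Summed level of thalamus markers against that of hypothalamus markers and of oligodendrocyte markers (all in CPM, log scales), 1 point per SAL–SAL or SAL–LPS library. SAL–SAL 10-1 and 10-3 hold 4516 and 3411 CPM of thalamus markers, and every SAL–LPS library is at or below 872 CPM.

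Of 28841 genes tested, 109 (0.378%) had an adjusted p under 0.05 (edgeR quasi-likelihood test, Benjamini-Hochberg), here termed called. Of these, 16 (0.0555%) were higher in SAL–LPS and 93 (0.322%) were lower. The median log2 fold change (log2FC) of all genes tested was 0.06. A mean of at least 1 CPM was reached by 76 called genes, 9 higher and 67 lower, and in 0 of the 76 were the ranges of the groups apart. With litter as a replicate block 1 gene was called (edgeR, 1467 at an unadjusted p under 0.05). This block fit, here and below, used the 20 SAL–SAL and SAL–LPS libraries alone and no sex term. The fit of the 109 spans 4 conditions with sex. Those 20 libraries with sex and no litter gave 5 called genes (edgeR, 2961 at an unadjusted p under 0.05). Litter as a random replicate block over the 4 conditions gave 44 (limma-voom). Without litter 10 Ttr alone was called (edgeR, 3094 at an unadjusted p under 0.05). Without SAL–SAL 10-1 and 10-3, an alternative chosen after seeing the data, 4 genes were called.

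Saa3 and Lcn2, which are acute-phase genes, were among the 16 called higher. Saa3 encodes serum amyloid A3, and Lcn2 encodes lipocalin 2, which binds bacterial siderophores. Serpina3n, a serine protease inhibitor that reactive astrocytes make, lay just outside the threshold and is described because of that, after its values were seen. Their promoters are shown because these 3 genes are the acute-phase genes described here. Each is the 250 bases before the RefSeq start (GRCm38.p6), 5′ to 3′ on the strand of the gene. Capitals mark matches on either strand to TTGCNNAA (C/EBP), GGANTTTCC (NF-kB) or TTCNNNGAA (STAT).

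Saa3, chr7:46715677-46715926, minus strand: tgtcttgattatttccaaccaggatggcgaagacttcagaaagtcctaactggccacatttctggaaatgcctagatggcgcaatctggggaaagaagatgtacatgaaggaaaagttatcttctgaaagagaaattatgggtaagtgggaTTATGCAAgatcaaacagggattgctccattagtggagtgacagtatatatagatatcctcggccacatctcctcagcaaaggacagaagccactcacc
Lcn2, chr2:32387740-32387989, minus strand: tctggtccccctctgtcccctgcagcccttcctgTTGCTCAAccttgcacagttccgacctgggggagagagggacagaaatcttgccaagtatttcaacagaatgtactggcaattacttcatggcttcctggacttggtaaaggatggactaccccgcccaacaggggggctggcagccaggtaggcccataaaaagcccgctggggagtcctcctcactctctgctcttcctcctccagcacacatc
Serpina3n, chr12:104406458-104406707, plus strand: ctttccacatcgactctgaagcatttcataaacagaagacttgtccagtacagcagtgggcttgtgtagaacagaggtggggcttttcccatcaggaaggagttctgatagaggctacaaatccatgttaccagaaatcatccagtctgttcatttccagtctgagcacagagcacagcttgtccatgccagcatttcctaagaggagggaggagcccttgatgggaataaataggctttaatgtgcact

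The C/EBP letters occurred once in Saa3, from 99 to 92 bases before the start, and once in Lcn2, from 216 to 209 bases before it. Among 32536 promoters of the same length, 9.57% held these letters, 1.07% the NF-kB letters and 7.04% the STAT letters. The letters ACANNNTGT of glucocorticoid receptor sites, left in lower case, occurred in Lcn2 and Serpina3n and in 5.82% of the promoters.

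Saa3 (chr7:46711998-46715700) had 0 counts in each of the 9 SAL–SAL libraries. In SAL–LPS it ran from 0 to 19.2 CPM (median 1.82), with counts in 9 of 11 libraries and the highest level in SAL–LPS 10-4. The group mean was at least 53.1-fold higher in SAL–LPS, against a floor of 3 counts over the SAL–SAL group (adjusted p = 0.0167, edgeR). Without SAL–LPS 10-4 it was at least 27.4-fold higher (adjusted p = 0.0347, edgeR). Its adjusted p was 0.390 with litter as a replicate block and 0.198 without litter 10 (edgeR). Serum amyloid genes are close copies of each other, so their reads may be split uncertainly.

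Lcn2 (chr2:32384633-32388252) had 3 counts in SAL–SAL, all in SAL–SAL 1-3 (0.355 CPM). In SAL–LPS it ran from 0 to 9.44 CPM (median 2.22), and 7 of 11 libraries lay above every SAL–SAL library while 4 were at 0. The fitted log2FC was 5.60 with a standard error (SE) of 1.31 (adjusted p = 0.0321, edgeR). Without SAL–SAL 1-3, no SAL–SAL library held counts and the adjusted p was 0.0236 (edgeR). The log2FC was 4.92 without litter 3 (adjusted p = 0.122, edgeR) and 5.46 without litter 10 (adjusted p = 0.202, edgeR). Of the 27 fits that left out 1 library or litter, 15 called Lcn2. With litter as a replicate block the log2FC was 5.28 (adjusted p = 0.562, edgeR).

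Serpina3n (chr12:104406729-104414329) ran from 0.203 to 29.1 CPM in SAL–SAL (median 20.9) and from 16.8 to 156 CPM in SAL–LPS (median 41.1). In 9 of 11 SAL–LPS libraries it was above every SAL–SAL library, and the log2FC was 2.00 ± 0.51 (SE; adjusted p = 0.0516, edgeR). SAL–LPS 3-1, 10-4 and 9-1, at 156, 153 and 122 CPM, were also the SAL–LPS libraries with the most astrocyte marker RNA (538, 553 and 318 CPM). SAL–SAL 4-1 and 9-4 held 782 and 519.5 CPM of astrocyte markers, with Serpina3n at 14.5 and 21.9 CPM and Saa3 and Lcn2 at 0. With litter as a replicate block its log2FC was 2.24 (adjusted p = 0.307, edgeR). Over 23 alternatives (edgeR, DESeq2 or limma) besides leaving out 1 library or litter, its adjusted p ran from 0.0116 to 0.546, and 5 called it.

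**Figure D2:**
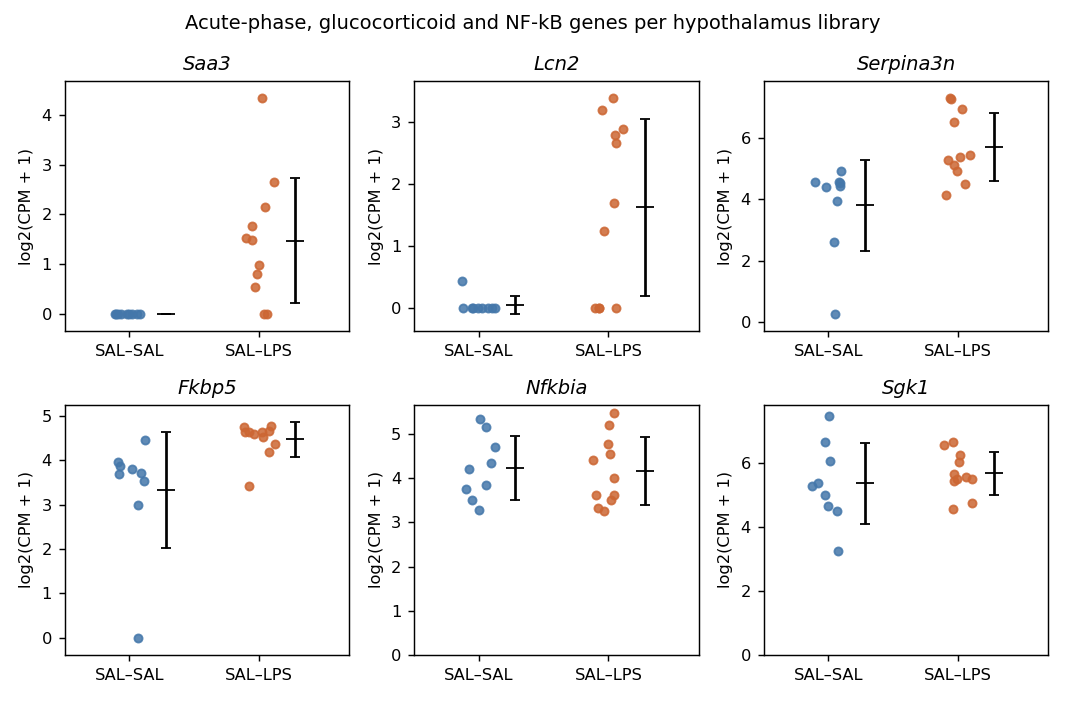
Level of 6 genes in each library as log2(CPM + 1), with the mean and SD of each group (SAL–SAL, n = 9; SAL–LPS, n = 11). Saa3 is at 0 in every SAL–SAL library and above 0 in 9 of 11 SAL–LPS libraries, while Nfkbia and Sgk1 overlap between the groups.

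The other higher genes of at least 1 CPM belonged to varied functions. Smyd3, a lysine methyltransferase, ran from 24.1 to 102 CPM in SAL–SAL (median 63.5) and from 77.0 to 163 CPM in SAL–LPS (median 109). In 7 of 11 SAL–LPS libraries it lay above every SAL–SAL library, with a log2FC of 0.78 ± 0.18 (SE; adjusted p = 0.0282, edgeR). Trdmt1, a tRNA cytosine methyltransferase, had medians of 8.04 and 14.9 CPM and a log2FC of 1.15, and 9 of 11 SAL–LPS libraries lay above every SAL–SAL library. Camk1g, a calcium/calmodulin-dependent kinase, had medians of 42.0 and 80.8 CPM and a log2FC of 1.10. Over 27 fits that each left out 1 library or litter, Smyd3 was called in 16, Trdmt1 in 9 and Camk1g in 8.

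The remaining higher genes were highest in SAL–LPS 1-0, the library with the most brainstem marker RNA. Syt6, a synaptotagmin, had medians of 20.9 and 39.9 CPM, reached 112 CPM in SAL–LPS 1-0 and had a log2FC of 1.50. Lamp5, a membrane protein of subsets of forebrain neurons, had medians of 9.28 and 18.9 CPM, reached 260 CPM there and had a log2FC of 2.05. Tfrc, the transferrin receptor that imports iron, had medians of 90.2 and 109 CPM, reached 451 CPM there and had a log2FC of 0.82. Tnn, tenascin-N of the extracellular matrix, was at 0 in the 9 SAL–SAL libraries, reached 8.64 CPM in SAL–LPS 1-0 and was at least 31.5-fold higher in SAL–LPS by the group means. Without SAL–LPS 1-0 these 4 genes were not called, with an adjusted p from 0.0615 for Tnn to 0.132 for Tfrc (edgeR), and Tnn was at least 20.7-fold higher. The part of brainstem tissue in these values was not tested.

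Thalamus markers were among the lower genes. Of 12 tested, 5 were called, all lower (0.322% of all genes were called lower), and 12 had a negative log2FC, with a median of -1.84 against 0.06 over all genes. The called members were Prkcd, Plekhg1, Lef1, Rora and Amotl1. Without litter 10, 0 of the 12 were called and the median was -1.42, and with litter as a replicate block 0 were called with a median of -1.48.

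Prkcd (chr14:30595354-30626210), protein kinase C delta, ran from 7.70 to 1520 CPM in SAL–SAL (median 307) and from 0.975 to 171 CPM in SAL–LPS (median 44.6). The ranges overlapped, with SAL–SAL 10-1, 10-3 and 5-3 highest, and the log2FC was -2.96 ± 0.68 (SE; adjusted p = 0.0308, edgeR). Rora (chr9:68653786-69388246), a nuclear receptor of the circadian clock, ran from 52.5 to 770 CPM in SAL–SAL (median 247) and from 63.2 to 146 CPM in SAL–LPS (median 88.4). No SAL–LPS library lay below the SAL–SAL range, and the log2FC was -1.64 ± 0.29 (SE; adjusted p = 0.00478, edgeR). Plekhg1, a guanine nucleotide exchange factor, had medians of 252 and 41.4 CPM and a log2FC of -2.88. Lef1, a transcription factor of Wnt signalling, had medians of 37.3 and 8.78 CPM and a log2FC of -2.92. Amotl1, a junction protein of the angiomotin family, had medians of 260 and 94.5 CPM and a log2FC of -1.66.

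Genes outside that list followed the same libraries. Fryl (chr5:73019987-73256619), related to the furry gene of flies, had the smallest p of the genes tested. It ran from 154 to 1651 CPM in SAL–SAL (median 393) and from 174 to 408 CPM in SAL–LPS (median 208), highest in SAL–SAL 10-1 and 10-3, with a log2FC of -1.38 ± 0.23 (SE; adjusted p = 0.00409, edgeR). Adamts19, a secreted metalloprotease, was at 163 and 86.1 CPM in SAL–SAL 10-1 and 10-3, from 0 to 45.5 CPM in the other SAL–SAL libraries and from 0 to 10.7 CPM in SAL–LPS. Its log2FC was -4.36 ± 0.77 (SE).

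Among the other lower genes of at least 1 CPM with the smallest p, Pdp1, a pyruvate dehydrogenase phosphatase, had a log2FC of -1.24 and Slc25a37, the mitochondrial iron importer mitoferrin, one of -1.67. Fras1, an extracellular matrix protein, had a log2FC of -1.48, Bicd2, a dynein adaptor, one of -0.83 and Fgd6, a Cdc42 exchange factor, one of -2.03. Ccdc141 had a log2FC of -2.08 and Adarb2, a relative of RNA-editing deaminases, one of -1.30. Bicd2 lay below every SAL–SAL library in 6 of 11 SAL–LPS libraries.

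Over the 11 SAL–LPS libraries alone, 31 of 62 called lower genes of at least 1 CPM (50%, thalamus markers left out) had a Spearman correlation over 0.5 with the thalamus marker score, with a median of 0.52 over those with a correlation. The 62 include 1 gene, Msx1, that was at 0 in these libraries and has no correlation. Over 18631 tested genes at that level the share was 7.31% and the median 0.04, and among the 9 called higher genes 0 did (median -0.44). This describes libraries that differ in depth as well, and carries no test.

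Ttr encodes transthyretin, which the choroid plexus makes in abundance. It was at 223, 198, 110 and 78.5 CPM in SAL–SAL 4-1, 1-3, 11-1 and 3-2 and at 3.71 CPM or less in the other 5 SAL–SAL libraries. In SAL–LPS it ran from 0 to 5.11 CPM, inside the lower end of the SAL–SAL range. The log2FC was -6.12 ± 1.12 (SE; adjusted p = 0.00577, edgeR), and it was -7.05 without litter 10 (adjusted p = 0.0104, edgeR) and -5.47 with litter as a replicate block (adjusted p = 0.200, edgeR). Of the 8 choroid plexus and ependyma markers 1, Ttr, was called, and their sum ran from 4.43 to 312 CPM in SAL–SAL and from 7.98 to 35.1 CPM in SAL–LPS, with Rax at 0 in the 20 libraries. Msx1, a homeobox gene, was at 21.0 CPM in SAL–SAL 4-1, at 0 in 4 other SAL–SAL libraries and at 0 throughout SAL–LPS, at least 71.8-fold lower by the group means. Without SAL–SAL 4-1 it was at least 11.0-fold lower and not called (adjusted p = 0.0566, edgeR). The part of choroid plexus in these values was not tested.

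**Figure D3:**
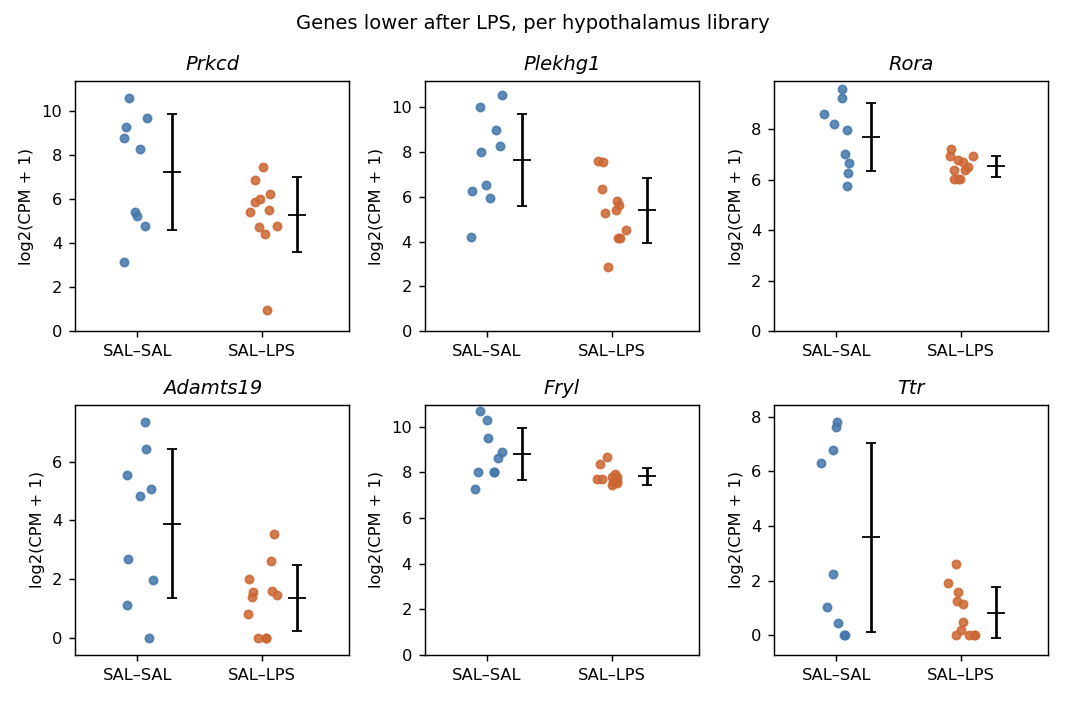
Level of 6 lower genes in each library as log2(CPM + 1), with the mean and SD of each group (SAL–SAL, n = 9; SAL–LPS, n = 11). The groups overlap in each gene, and Ttr splits SAL–SAL into 4 libraries at 78.5 CPM or more and 5 at 3.71 CPM or less.

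Lists of pathways that LPS is known to reach held 4 called genes of 344 tested, each counted once (1.16%, against 0.378% of all genes tested). Of 14 lists, the called members were Lcn2 among 28 NF-kB pathway genes, Socs6 among 24 genes of JAK-STAT signalling and Rora and Rorb among 21 core clock genes. Socs6, a suppressor of cytokine signalling, had medians of 81.0 and 39.6 CPM and a log2FC of -1.17 (adjusted p = 0.0203, edgeR). Rorb, a nuclear receptor related to Rora, had medians of 63.2 and 30.3 CPM and a log2FC of -1.57 (adjusted p = 0.0321, edgeR). Both were highest in SAL–SAL 10-1 and 10-3, the libraries with the most thalamus marker RNA.

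**Figure D4:**
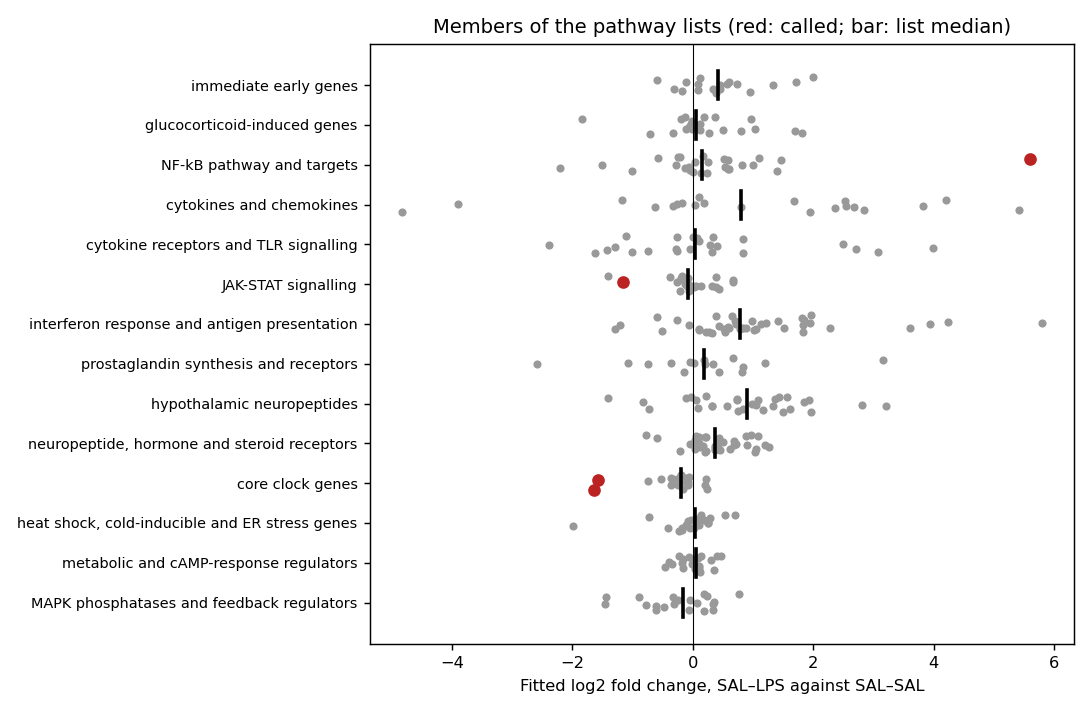
Fitted log2FC of SAL–LPS against SAL–SAL for the tested members of the pathway lists, 1 point per gene, with called genes in red and the list median as a bar. The red points are Lcn2, Socs6, Rora and Rorb.

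Glucocorticoid-induced genes had 0 of 22 called, 11 with a positive log2FC and a median of 0.06. The median was -0.34 in females alone and 0.49 in males alone, each sex fitted over the 4 conditions. Fkbp5, a co-chaperone that dampens the glucocorticoid receptor, ran from 0 to 20.9 CPM in SAL–SAL (median 12.1) and from 9.64 to 26.3 CPM in SAL–LPS (median 23.9). It lay above every SAL–SAL library in 8 of 11 SAL–LPS libraries, with a log2FC of 0.97 and a 95% interval of 0.13 to 1.82 (adjusted p = 0.252, edgeR). Sgk1, a kinase induced by glucocorticoids, had medians of 37.8 and 46.6 CPM and a log2FC of -0.03. Tsc22d3, which encodes the leucine zipper protein GILZ, had a log2FC of 0.19, and Per1, a clock gene, one of -0.20.

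Immediate early genes, which neuronal activity switches on, had 0 of 18 called, 14 with a positive log2FC and a median of 0.41. The median was -0.02 with 9 positive in females alone, 0.90 with 17 positive in males alone and 0.21 with litter as a replicate block. Fos ran from 12.0 to 26.9 CPM in SAL–SAL and from 7.89 to 68.4 CPM in SAL–LPS, with a log2FC of 0.57 and a 95% interval of 0.02 to 1.12 (adjusted p = 0.324, edgeR). Egr1 had a log2FC of 0.33 and Nr4a1 one of 0.09. Nfkbia, the NF-kB inhibitor that is itself an NF-kB target, had medians of 17.5 and 15.1 CPM and a log2FC of -0.07 with a 95% interval of -0.81 to 0.66. Socs3, a feedback inhibitor of cytokine receptors, had medians of 0.87 and 0.974 CPM.

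Cytokines and chemokines were at the limit of counting, with 0 of 21 called. Cxcl10, an interferon-induced chemokine, was at 0 in SAL–SAL and had counts in 4 of 11 SAL–LPS libraries, at up to 4.51 CPM. Il1b, Tnf and Ccl2 were at 0 in SAL–SAL and had counts in 2 of 11 SAL–LPS libraries each. Il6 had 0 counts in the 20 libraries and was not tested. Tlr4, the LPS receptor, was at 0 in SAL–SAL and in 9 of 11 SAL–LPS libraries. Ptgs2, the inducible cyclooxygenase, was at 0 in 8 of 9 SAL–SAL and 6 of 11 SAL–LPS libraries and reached 18.9 CPM in SAL–LPS 1-2. Ptger3, a prostaglandin receptor of fever-related neurons, had medians of 1.47 and 2.41 CPM, and Il1r1, the interleukin 1 receptor, medians of 1.78 and 1.11 CPM.

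Interferon-response and antigen-presentation genes had 0 of 42 called, while 36 had a positive log2FC, with a median of 0.79. The median was 0.56 without litter 10 and 1.01 with litter as a replicate block. Irf1, a transcription factor of that response, ran from 0 to 8.79 CPM in SAL–SAL and from 0.199 to 13.9 CPM in SAL–LPS. Microglia and macrophage markers summed to 25.8 to 127 CPM in SAL–SAL and 22.3 to 93.6 CPM in SAL–LPS, with 0 of 11 called.

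Hypothalamic neuropeptides had 0 of 30 called, 25 with a positive log2FC and a median of 0.91. Without litter 10 the median was 0.20 with 18 positive, and it was 1.67 in females alone and -0.58 in males alone. The 4 female SAL–SAL libraries include 10-1 and 10-3. Hcrt, which encodes orexin, ran from 0 to 28.7 CPM in SAL–SAL and from 0 to 199 CPM in SAL–LPS, highest in SAL–LPS 10-4, 3-1 and 9-1. Pomc, the precursor of alpha-MSH, had medians of 1.03 and 2.79 CPM, Avp, vasopressin, 0.195 and 11.8 CPM, and Crh, the releasing hormone of the stress axis, 0.391 and 1.22 CPM. Oxt, oxytocin, had medians of 0 and 1.97 CPM, and the appetite peptides Agrp and Npy had 2.94 and 2.29 CPM and 2.58 and 1.36 CPM. The groups overlapped in each of these genes. The hypothalamus marker sum, which shares some of them, ran from 8.84 to 149 CPM in SAL–SAL and from 6.41 to 383 CPM in SAL–LPS.

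The other lists held 0 called genes. Their medians were 0.80 for cytokines and chemokines (21 tested), 0.04 for cytokine receptors and Toll-like receptor signalling (24), 0.19 for prostaglandin genes (16), 0.37 for neuropeptide, hormone and steroid receptors (35), 0.04 for heat shock and ER stress genes (22), 0.05 for metabolic regulators (22) and -0.16 for MAPK feedback regulators (20). Oligodendrocyte markers had 0 of 10 called and a median of -0.81, astrocyte markers 0 of 8 and 0.02, endothelium and pericyte markers 0 of 9 and -0.71, striatum markers 0 of 7 and 1.25 and hypothalamus markers 0 of 19 and 1.11. Cortex and hippocampus markers had 0 of 9 and 0.30, brainstem markers 0 of 8 and 1.73 and neuron markers 0 of 9 and 0.14. With litter as a replicate block the median turned to 0.23 for oligodendrocyte markers, -0.28 for cortex and hippocampus markers and -0.05 for cytokine receptors and Toll-like receptor signalling, and was 0.55 for astrocyte and 0.30 for hypothalamus markers. Without litter 10 it was 0.15 for hypothalamus markers and 0.22 for cytokines and chemokines. It turned to -0.36 for astrocyte markers, -0.14 for heat shock and ER stress genes, -0.06 for cytokine receptors and Toll-like receptor signalling and -0.03 for prostaglandin genes and for metabolic regulators.

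The response of females and males differed in 2 genes (0.00693% of those tested, edgeR; 3004 at an unadjusted p under 0.05). Nfib, a transcription factor of the nuclear factor I family, had a log2FC of -0.75 in females and 2.86 in males. It was not called once genes averaging under 1 CPM were removed (adjusted p = 0.0509, edgeR). Without the female-labelled libraries above the Y-linked limit, an alternative chosen after seeing the data, its adjusted p was 0.0706 and 0 genes were called (edgeR, 2957 at an unadjusted p under 0.05). It ran from 8.74 to 89.5 CPM in SAL–SAL (median 14.5) and from 16.0 to 197 CPM in SAL–LPS (median 28.6), and the groups overlapped. Sex and litter cannot be told apart outside litter 3. DESeq2 called 16 genes, with Nfib among them (log2FC difference -3.59, adjusted p = 0.000716).

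The acute-phase genes were called higher after LPS in morphine-exposed mice, whose controls are other animals. In saline-exposed mice Saa3 and Lcn2 were called and Serpina3n was not. MOR–LPS against MOR–SAL called 1971 genes (6.83%). Saa3 was at 0 in 12 of 14 MOR–SAL libraries and had a median of 3.73 CPM in MOR–LPS (adjusted p = 0.000325, edgeR). Lcn2 was at 0 in 13 of 14 MOR–SAL libraries and had a median of 6.94 CPM in MOR–LPS (adjusted p = 0.000171, edgeR). Serpina3n had medians of 18.4 and 98.9 CPM and a log2FC of 2.32 (adjusted p = 0.000544, edgeR). Astrocyte markers summed to 29.5 to 94.1 CPM in MOR–SAL and 25.0 to 1540 CPM in MOR–LPS, with 6 of 8 called higher, and their part in these values was not tested. The difference between the exposures was not called for Saa3 (adjusted p = 0.619), Lcn2 (0.968) or Serpina3n (0.901, edgeR).

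Against 6.83% of all genes called in MOR–LPS in either direction, 5 of the 16 higher and 7 of the 93 lower genes were called there. Of the 16 higher genes, 4 were called higher in MOR–LPS (Saa3, Lcn2, Lamp5 and Serpina3c) and 1 was called lower (Tmem211). Of the 93 lower genes, 2 were called lower there (Cacna1g and Gm4978) and 5 were called higher (Fgd6, Clmn, Ucn, Six5 and Gm26512), a share near that of all genes. Rora had a log2FC of -0.10 in morphine-exposed mice, Fryl one of 0.22, Adamts19 one of -0.20, Prkcd one of 1.26 and Ttr one of 1.80, none called. Thalamus markers there had 0 of 12 called, and summed to 178 to 1425 CPM in MOR–SAL and 185 to 847 CPM in MOR–LPS. The interaction called 1108 genes (3.84%), 72 of the 109 among them, but it contains the contrast by which the 109 were called.

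Glucocorticoid-induced genes had 16 of 22 called higher in MOR–LPS, where 6.83% of all genes were called, and 0 of 22 in SAL–LPS, where 0.378% were. The difference itself was called for 5 of the 22 (Txnip, Ddit4, Zbtb16, Klf9 and Arrdc2), against 3.84% of all genes, and was not called for the others, such as Fkbp5 (adjusted p = 0.754) and Sgk1 (0.0848, edgeR). Nfkbia among the NF-kB targets was called in it (adjusted p = 0.0319, edgeR). Oligodendrocyte markers had 7 of 10 called higher in MOR–LPS (median log2FC 1.97) and summed to 81.1 to 699 CPM in MOR–SAL and 232 to 6982 CPM in MOR–LPS. Cortex and hippocampus markers had 6 of 9 called higher there (median log2FC 3.15) and summed to 311 to 665 CPM and 228 to 940 CPM. The part of these cells and regions in the glucocorticoid-induced genes was not tested.

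**Figure D5:**
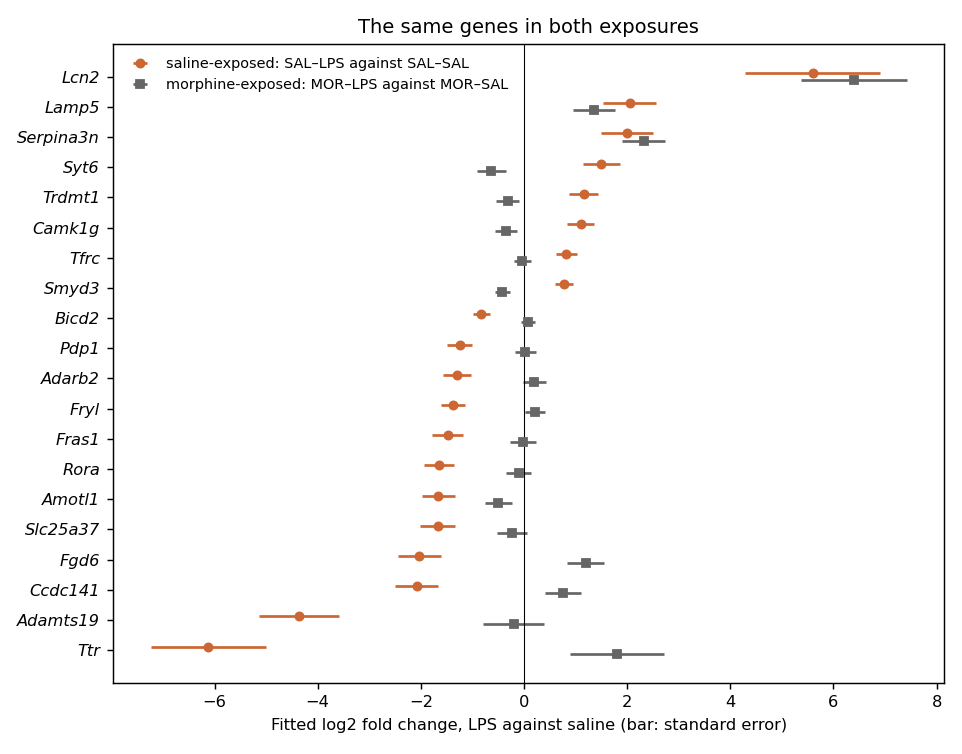
Fitted log2FC of LPS against saline with its standard error for Serpina3n and 19 named genes with counts in both saline-exposed groups, in saline-exposed and morphine-exposed mice. Lcn2, Lamp5 and Serpina3n are positive in both, while Fryl is at -1.38 in saline-exposed and 0.22 in morphine-exposed mice.

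The hypothalamic response was also set against that of hippocampus, prefrontal cortex (PFC) and striatum in saline-exposed mice, over 94 libraries and 20064 genes. The difference was called for 214 genes (1.07%), and for 7 with the animal as a random replicate block (limma-voom), of which 2, Gm37770 and Gabra4, were among the 214. Fryl, Rora, Adamts19, Ttr, Pdp1 and Fras1 were among the 214, each with the lower response in the hypothalamus, but this difference contains the contrast by which they were called. The acute-phase genes were not called in that difference, with an adjusted p of 0.426 for Saa3, 0.958 for Lcn2 and 0.785 for Serpina3n (edgeR). In the PFC, Saa3 and Lcn2 were called higher after LPS (adjusted p = 0.0047 and 0.0055, edgeR). Treml4, Ms4a6c and Cd200r2, genes of myeloid and other immune cells, had, among genes without Gm or Rik names, the smallest p for a higher response in the hypothalamus, where they were at 0 in SAL–SAL and had counts in 2, 5 and 3 of 11 SAL–LPS libraries. Each was highest in SAL–LPS 1-0, and their bounds against SAL–SAL fell without it from at least 3.87 to 1.58-fold for Treml4, 18.1 to 11.7-fold for Ms4a6c and 9.71 to 3.14-fold for Cd200r2. Without that library, an alternative chosen after seeing the data, the region difference was called for each of them (adjusted p = 0.0110, 0.0148 and 0.0340, edgeR). Ucn, the peptide urocortin, Kitl, the ligand of the receptor Kit, and Fryl had the smallest p for a lower one among such genes. Kitl had medians of 31.7 CPM in SAL–SAL and 11.6 CPM in SAL–LPS, with a log2FC of -1.61 (adjusted p = 0.0618, edgeR).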

How the data were processed

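Nuclear RNA of NeuN+ nuclei was sequenced with 1 library per animal and region. Per the labels, the authors' processing named Trim Galore 0.6.7, STAR 2.7.10a, HTSeq 0.12.4, DESeq2 1.40.2 and the build mm10. The authors deposited raw read counts for 46403 genes and CPM values made from them without mitochondrial genes. Strand use in counting is not given in the sources used here, so Rora, Fras1, Slc25a37, Syt6, Lef1, Irf1, Cxcl10, Il1b, Agrp, Slc1a2 and Ms4a6c, whose exons overlap another gene's, are uncertain.

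Here, counts of genes with a total over 10 were fitted with edgeR 4.0.16 (R 4.3.3, TMM, quasi-likelihood) over 4 conditions with sex as a covariate, in libraries of at least 0.5 of the median total (5543589). The sex comparison used 8 groups of condition and sex. SE is the log2FC over the root of F. Single-gene CPM are TMM-normalized. A group at 0 counts throughout is set against 3 counts over the group (0.0618 CPM in SAL–SAL, 0.0376 CPM in SAL–LPS), for counting error only. Fitted values of such genes depend on the prior count.

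Members, lists and tests were chosen with earlier results of these data known. Named were the 15 called genes with the smallest p per direction and at least 1 CPM (Gm, Rik, pseudogene and mitochondrial names left out), called list members and markers, a fixed set of LPS-related genes and the 3 smallest p per direction of the other comparisons. Alternatives used DESeq2 1.42.0, limma 3.58.1, other filters, scalings, samples, blocks and covariates. Litter numbers pair the samples because the study's supplement gives the sample ID as litter and individual, and the challenge was assigned per animal. The study's methods, however, count the litters of each condition as distinct, and if so the block would not pair SAL–SAL with SAL–LPS. Over 6 litters with both groups, deviations correlated at -0.07 to 0.12, with 1 over 0.1. No columns were identical. A few named items are not reported here. Positions are from GENCODE M21 (mm10). The script was tested on simulated counts for SAL–LPS against SAL–SAL over 27792 genes. There edgeR found 64.5% of the 200 genes given a log2FC of 2, and it called 41 unchanged genes, 35 of them under 1 CPM.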

Additional observations from a re-analysis of the deposited data

Results flagged for a closer look

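In 6 of 74 groups considered, 1 SAL–SAL library lay far from the other 8, where chance gives about 5% of the groups tested. The 74 include genes with counts in at most 1 SAL–SAL library, such as Tnn and Cd200r2. Such genes were passed over without a test, so 6 of 74 understates the flagged share. On the scale of log2(CPM + 1), SAL–SAL 10-3 was at 0.0 for Syt6, 0.0 for Fkbp5, 0.27 for Serpina3n and 3.31 for Ucn, SAL–SAL 4-1 at 4.46 for Msx1 and SAL–SAL 5-1 at 4.33 for Nr4a1.

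The LPS response differed between the exposures in the interaction test (edgeR) for 26 named genes, given as the log2 response in morphine-exposed minus that in saline-exposed mice. It was higher in morphine-exposed mice for Fryl (1.60), Rora (1.55), Adamts19 (4.16), Ttr (7.93), Pdp1 (1.26), Ccdc141 (2.84), Bicd2 (0.90), Fras1 (1.46), Fgd6 (3.23), Adarb2 (1.49), Socs6 (1.31), Prkcd (4.22), Plekhg1 (3.76), Kitl (2.05), Nfkbia (1.63) and the glutamate transporter gene Slc1a2 (2.62). It was also higher for Msx1 (8.66), Ucn (10.48) and Six5 (10.39), which were at 0 throughout SAL–LPS, so these values depend on the prior count. It was lower for Smyd3 (-1.20), Syt6 (-2.13), Trdmt1 (-1.47), Camk1g (-1.45) and the glycine transporter gene Slc6a5 (-9.12), and for Cd200r2 (-6.04) and Tmem211 (-9.33), which were at 0 throughout SAL–SAL. Slc6a5 was at 384 and 134 CPM in SAL–LPS 1-0 and 3-3 and at most 4.02 CPM in SAL–SAL. Over all genes tested, 3.84% were called in the interaction. Nfkbia aside, the 26 genes were named for calls in the saline-exposed contrast or for the smallest p of this or the region test. The interaction contains that contrast, so the count of 26 is no separate evidence of a difference.

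The response differed between the hypothalamus and the mean of the other regions for 16 named genes, given as the log2 response in the hypothalamus minus that in the others. The values were -1.61 for Fryl, -2.12 for Rora, -4.55 for Adamts19, -6.77 for Ttr, -1.89 for Amotl1, -1.57 for Pdp1, -1.69 for Fras1, -1.49 for Slc25a37, -1.20 for Socs6, -2.04 for Kitl and -10.55 for Ucn. They were 8.08 for Tnn, 5.88 for Treml4, 7.73 for Ms4a6c, 6.95 for Cd200r2 and 5.82 for Slc6a5. In the hypothalamus Tnn, Treml4, Ms4a6c and Cd200r2 were at 0 throughout SAL–SAL and Ucn throughout SAL–LPS. The values of these genes depend on the prior count. Tnn, Treml4, Ms4a6c, Cd200r2 and Slc6a5 were highest in SAL–LPS 1-0 within the hypothalamus. Without that library, an alternative chosen after seeing the data, Tnn (7.14), Treml4 (5.27), Ms4a6c (7.08) and Cd200r2 (5.10) were called and Slc6a5 (4.25, adjusted p = 0.106, edgeR) was not. With the animal as a random replicate block in limma-voom, 7 genes were called in this comparison, none of these 16 among them. There the difference was 3.65 for Tnn, 0.66 for Treml4, 1.91 for Ms4a6c, 1.16 for Cd200r2 and 0.36 for Slc6a5. Over all genes tested, 1.07% were called in edgeR. The 16 were named for calls in the saline-exposed contrast, which this difference contains, or for the smallest p of this or the interaction test. Their count is no separate evidence.

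The response differed between the sexes, as that in females minus that in males, by -3.61 for Nfib on the log2 scale (adjusted p = 0.0294, edgeR). It was -3.59 with DESeq2 (adjusted p = 0.000716). The call was lost with a mean CPM of at least 1 (0.0509), with low-depth libraries kept (0.0606) and without the libraries against the sex label (0.0706, edgeR).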

How the results depend on the processing

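The count of 109 called genes depended strongly on the samples and the model. It was 177 with DESeq2, 66 with filterByExpr, 67 with a mean CPM of at least 1, 71 with low-depth libraries kept, 5 with SAL–SAL and SAL–LPS fitted alone, 50 without the sex term, 7 in males alone, 54 with a robust fit, 34 with limma on log2(CPM + 1) and 9 on log2(CPM + 0.1). With litter as a replicate block, fitted over SAL–SAL and SAL–LPS alone without the sex term, it was 1. With litter as a random replicate block in limma-voom, over all 4 conditions, it was 44. With the thalamus marker score as a covariate 105 genes were called, of which 65 were higher, 40 were lower and 22 were among the 109. Chosen after seeing the data were the fits without SAL–SAL 10-1 and 10-3 (4), without libraries under 1 CPM of hypothalamic transcription factors (3), with the oligodendrocyte marker score (151, of which 45 were higher) and with both scores (113, of which 77 were higher). Leaving out 1 library gave 12 to 218. It gave 12 without SAL–SAL 10-1, 47 without 10-3, 51 without 3-2, 34 without 5-3 and 218 without 9-4, and 62 without SAL–LPS 1-0, 67 without 10-2, 56 without 10-4, 43 without 3-1, 61 without 4-4 and 47 without 9-1. Leaving out 1 litter gave 1 to 110, with 1 without litter 10, 4 without litter 3 and 70 without litter 5. Prkcd turned to 0.46 with the thalamus score and 0.55 with both scores, and Lef1 to 0.064 with both, none called, but Prkcd and Lef1 are members of the thalamus score, so this loss follows from its construction. The sex difference gave 16 genes with DESeq2, 1 with low-depth libraries kept, 0 with a mean CPM of at least 1 (edgeR, 1525 at an unadjusted p under 0.05) and, chosen after seeing the data, 0 without the libraries against the sex label (2957 at an unadjusted p under 0.05). The response in morphine-exposed mice gave 898 with a mean CPM of at least 1, and the interaction 547 with DESeq2 and 274 with a mean CPM of at least 1. The region difference gave 7 with the animal as a replicate block in limma-voom and 22 with a mean CPM of at least 1. The cause of these shifts was not tested.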

Other observations

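In the male libraries of all 4 conditions fitted alone (5 SAL–SAL, 4 SAL–LPS, 7 MOR–SAL, 7 MOR–LPS), 7 genes were called, each higher in SAL–LPS. They included Nfib and Nfix, transcription factors of the nuclear factor I family, and Lamp5. In females alone, again over 4 conditions (4 SAL–SAL, 7 SAL–LPS, 7 MOR–SAL, 7 MOR–LPS), 88 genes were called, 15 higher and 73 lower. Smyd3 was among the higher and Fgd6, Rora and Fryl were among the lower. The difference between the sexes was called for Nfib with all libraries, but not without the libraries against the sex label (adjusted p = 0.0706, edgeR), and it was not called for Smyd3, Fgd6, Rora or Fryl. Thalamus markers had 12 of 12 negative log2FC in both sexes, with medians of -2.09 in females and -1.81 in males. Hypothalamus markers had a median of 2.48 in females and -1.25 in males. The 4 female SAL–SAL libraries include 10-1 and 10-3, each with 16 of 19 hypothalamus markers at 0. Without litter 10 the median over both sexes was 0.15.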
